A study of Homo sapiens with 6 samples.

Results

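The integrin and laminin genes were described in 1205Lu cells, an established human metastatic melanoma line, by RNA sequencing after transfection with a SOX10 plasmid. Rows of the count table were taken by gene symbol, as integrin alpha chains (ITGA followed by a number or by V, E, L, M, X, D or 2B), integrin beta chains (ITGB with 1 digit) and laminin chains (LAMA, LAMB or LAMC with 1 digit). This gave 38 genes of 23368 in the table, namely 18 integrin alpha, 8 integrin beta and 12 laminin genes. The SOX10 cells received pCMV6-SOX10, a plasmid for expression of the transcription factor SOX10, and the control cells received the empty pCMV6 plasmid. Each group had 3 biological replicates, numbered 1 to 3. All flasks received 7.8 µg of plasmid by transient transfection with FuGENE 6 and were harvested 24 h later. The share of cells that took up plasmid was not stated, so each library may hold RNA of untransfected cells. In these bulk RNA samples, fewer cells expressing a gene and less RNA per cell cannot be told apart.

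Integrins are transmembrane receptors built from 1 alpha and 1 beta chain, and the pair decides which matrix protein is bound. Laminins are secreted trimers of an alpha, a beta and a gamma chain, and many but not all of them form the polymer on which basement membranes are built. In melanoma, cells of the pigment lineage meet laminins in the epidermal basement membrane and in vessel walls, and integrins carry their adhesion and migration on them. Laminin trimers are named by their chains, so that laminin 411 holds LAMA4, LAMB1 and LAMC1.

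Depth differed between the groups, with 2544420 to 4167393 assigned reads in the SOX10 libraries and 867917 to 2066520 in the control libraries. SOX10 itself averaged 25.02 ± 8.45 normalized counts (CPM, reads scaled by TMM and the library's reads in tested genes) in SOX10 libraries and 19.6 ± 2.63 CPM in control libraries (SD, n = 3 each). By library it had 21.7, 18.7 and 34.6 CPM, against 16.6, 20.8 and 21.5 CPM in control libraries, so the groups overlapped. The adjusted p by edgeR's quasi-likelihood test was 0.927. Its reads thus gave no check of the labels, and a rise of SOX10 RNA was not shown in these libraries. The 9 melanocytic and neural crest markers summed to 807 to 917 CPM in SOX10 libraries and 809 to 866 CPM in control libraries, and 0 of the 6 tested passed. Most of that sum was ERBB3 and S100B, while MITF averaged 4.797 CPM in SOX10 libraries and 5.94 CPM in control libraries. The smallest p of the list was that of NGFR, with 2.14, 1.20 and 2.18 CPM in SOX10 libraries, against 7.74, 11.5 and 4.88 CPM in control libraries. Its groups did not overlap, and the log2 fold change was -1.94 ± 0.54 (SE), for which edgeR's adjusted p was 0.292. The pigment markers MLANA, PMEL and TYR had 4, 19 and 9 reads over all 6 libraries. Of 7 leukocyte and 4 platelet markers none had enough reads for the test, and their summed levels were 3.21 to 4.12 CPM and 0 to 0.536 CPM in SOX10 libraries, against 0.9752 to 5.53 CPM and 0 to 1.15 CPM in control libraries. The 7 epithelial markers summed to 116 to 126 CPM in SOX10 libraries and 103 to 108 CPM in control libraries, mostly KRT18 and DSP. The 5 endothelial markers summed to 7.51 to 21.5 CPM and 7.74 to 16.6 CPM. In each of these 2 lists 2 markers were tested and 0 passed. Fibroblast and muscle markers summed to 24.2 CPM or less in every library.

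The cells expressed a short list of the chains at high level and held traces of the others. Of the 38 genes, 29 had at least 1 read in each of the 6 libraries, and 23 had enough reads for the test by edgeR's filter for low counts. These were 10 of 18 integrin alpha, 5 of 8 integrin beta and 8 of 12 laminin genes. Together the 38 genes took 0.797% to 0.837% of assigned reads in SOX10 libraries and 0.775% to 0.791% in control libraries. Levels of different chains are compared below as RPKM, that is CPM per kilobase of exon, with exons joined over all transcripts of the gene in GENCODE release 29.

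**Figure D1:**
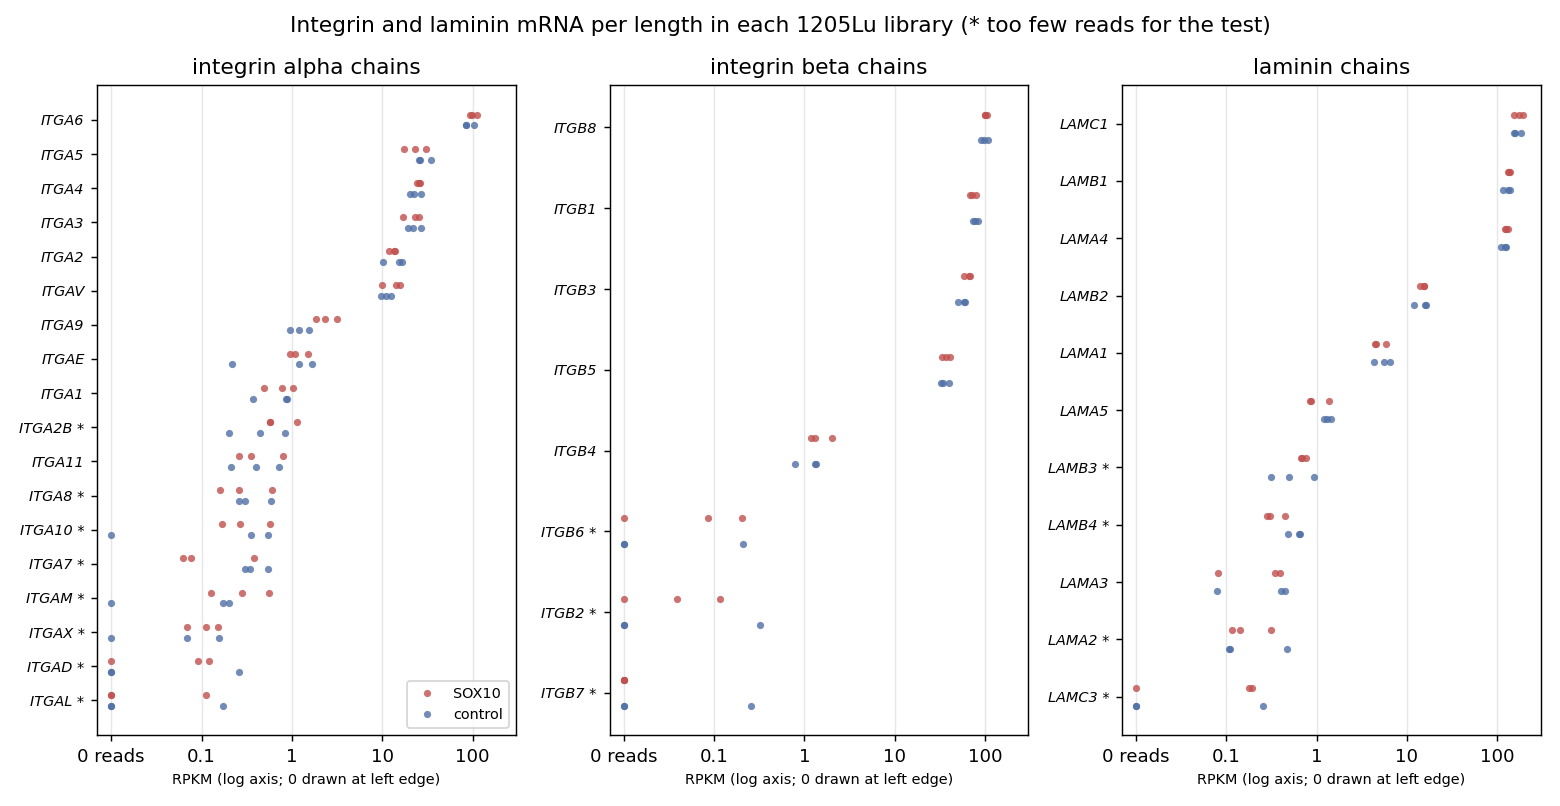
Level per length (RPKM, log axis) of the genes reported here in each library, with 3 SOX10 libraries in the upper and 3 control libraries in the lower row of points of each gene. LAMC1, LAMB1, LAMA4, ITGB8 and ITGA6 sit furthest to the right, between 84.4 and 191 RPKM, and the chains marked with an asterisk had too few reads for the test.

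The laminin RNA of these cells was dominated by the 3 chains of laminin 411. LAMC1, the gamma chain shared by most laminins, had 172 ± 19.3 RPKM in SOX10 libraries and 164 ± 15.02 RPKM in control libraries (SD, n = 3 each). LAMB1, the beta chain of that trimer, stood at 135 ± 3.45 RPKM in SOX10 libraries and 128 ± 10.2 RPKM in control libraries. LAMA4, an alpha chain known from vessels, nerve and mesenchyme, had 125 ± 5.01 RPKM in SOX10 libraries and 119 ± 7.22 RPKM in control libraries. These 3 chains were thus within a narrow range of each other. The ratio of LAMA4 to LAMB1 per length ran from 0.814 to 1.04 over the 6 libraries and that of LAMC1 to LAMB1 from 1.16 to 1.38. Their order turned with the length used. LAMC1 was the highest of all 38 genes per kilobase of joined exons, but per kilobase of the longest transcript LAMA4 was, at 220.2 ± 8.86 RPKM in SOX10 libraries and 210.4 ± 12.8 RPKM in control libraries. On that scale LAMB1 had 190.1 ± 4.87 and 181 ± 14.4 RPKM, and LAMC1 184 ± 20.6 and 174 ± 16.01 RPKM.

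Each of the 3 chains was also nearly alone in its class. LAMA4 made up 95.1% ± 0.358 of the summed RPKM of the 5 laminin alpha genes in SOX10 libraries and 94.2% ± 0.638 in control libraries (SD, n = 3 each). LAMB1 made up 89.4% ± 0.653 of the beta chains in SOX10 libraries and 88.9% ± 2.05 in control libraries. LAMC1 made up 99.5% ± 0.156 of the gamma chains in SOX10 libraries and 99.4% ± 0.112 in control libraries. The second beta chain, LAMB2, which replaces LAMB1 in laminin 421, had 14.8 ± 0.786 RPKM in SOX10 libraries and 14.6 ± 2.33 RPKM in control libraries. LAMA1, the alpha chain of embryonic laminin 111, had 4.92 ± 0.813 RPKM in SOX10 libraries and 5.48 ± 1.13 RPKM in control libraries. LAMA5, the alpha chain of most adult epithelial and vascular basement membranes, was lower again, at 1.02 ± 0.299 RPKM in SOX10 libraries and 1.32 ± 0.129 RPKM in control libraries.

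LAMA3 and LAMB3, an alpha and a beta chain of epithelial laminins, were close to the limit of detection. LAMA3 had 19, 3 and 24 reads in SOX10 replicates 1, 2 and 3, against 6, 1 and 12 reads in control replicates 1, 2 and 3. LAMB3 had 12, 9 and 13 reads in SOX10 libraries, against 4, 2 and 3 reads in control libraries. The muscle and nerve chain LAMA2 had 21 reads in all SOX10 libraries and 12 in all control libraries, LAMC3 had 11 and 4, and LAMB4 had 26 and 15. Scaled to depth, LAMA3 averaged 4.03 CPM in SOX10 libraries and 4.55 CPM in control libraries, and LAMA2 1.95 and 2.38 CPM. LAMB3 averaged 3.32 and 2.73 CPM, LAMC3 0.931 and 0.650 CPM, and LAMB4 2.43 and 4.15 CPM. Of 14 laminin trimers listed from textbook knowledge, 8 had all 3 chains among the tested genes. The lowest chain of these trimers averaged 122 RPKM over the 6 libraries in laminin 411 and 14.7 RPKM in 421. It averaged 5.20 RPKM in 111 and 121, 1.17 RPKM in 511 and 521 and 0.292 RPKM in 311 and 321.

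Among integrin beta chains the highest per length was ITGB8, which pairs with ITGAV alone and is known as a receptor for latent TGF-beta. It had 102 ± 3.35 RPKM in SOX10 libraries and 98.0 ± 8.31 RPKM in control libraries (SD, n = 3 each), or 36.7% ± 0.583 and 36.4% ± 2.77 of the summed RPKM of the 8 beta genes. Per longest transcript its share was 42.1% ± 0.469 in SOX10 libraries and 41.5% ± 2.91 in control libraries. ITGB1, the partner of most alpha chains, followed with 72.8 ± 5.92 RPKM in SOX10 libraries and 77.9 ± 5.78 RPKM in control libraries. ITGB3, the beta chain of the vitronectin receptor and a long-known feature of invasive melanoma, had 64.4 ± 4.93 RPKM in SOX10 libraries and 56.1 ± 5.54 RPKM in control libraries. The lowest ITGB1 library, SOX10 replicate 1 with 67.4 RPKM, was below the highest ITGB3 library, the same replicate with 67.7 RPKM, so the ranges of these neighbours met. Per kilobase of the longest transcript they did not, with ITGB1 at 107 RPKM or more and ITGB3 at 74.5 RPKM or less in every library. ITGB5, another partner of ITGAV, had 37.1 ± 3.80 RPKM in SOX10 libraries and 35.6 ± 3.79 RPKM in control libraries.

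The remaining beta chains were far lower. ITGB4, which joins ITGA6 in the hemidesmosomes of epithelia, had 1.498 ± 0.444 RPKM in SOX10 libraries and 1.16 ± 0.315 RPKM in control libraries, and ITGA6 exceeded it 49.4 to 107 times per length over the 6 libraries. ITGB6, an epithelial chain, had 5 reads in all SOX10 libraries and 2 in all control libraries. The leukocyte chains ITGB2 and ITGB7 had 3 and 0 reads in SOX10 libraries and 2 and 1 reads in control libraries. A count of 0 in 1 library allows up to 3 reads, or 0.72 to 3.46 CPM when scaled to all assigned reads, for counting error only.

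Among integrin alpha chains ITGA6, the laminin-binding partner of ITGB1 and ITGB4, stood well above the rest at 101 ± 9.53 RPKM in SOX10 libraries and 91.1 ± 11.5 RPKM in control libraries (SD, n = 3 each). It made up 49.4% ± 4.61 of the summed RPKM of the 18 alpha genes in SOX10 libraries and 46.4% ± 5.34 in control libraries. Per longest transcript its share was 42.4% ± 4.66 in SOX10 libraries and 39.5% ± 5.00 in control libraries. A second tier held ITGA5, the fibronectin receptor chain, at 23.6 ± 6.65 RPKM in SOX10 libraries and 28.9 ± 5.04 RPKM in control libraries, ITGA4, which binds fibronectin and VCAM1, at 25.2 ± 1.02 and 23.2 ± 3.41 RPKM, and ITGA3, another laminin receptor chain, at 21.7 ± 4.52 and 22.7 ± 3.88 RPKM. Their ranges over libraries overlapped, so their order was within the spread. The collagen receptor chain ITGA2 had 13.1 ± 1.10 RPKM in SOX10 libraries and 14.0 ± 3.43 RPKM in control libraries, and ITGAV 13.3 ± 3.08 and 10.97 ± 1.41 RPKM.

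**Figure D2:**
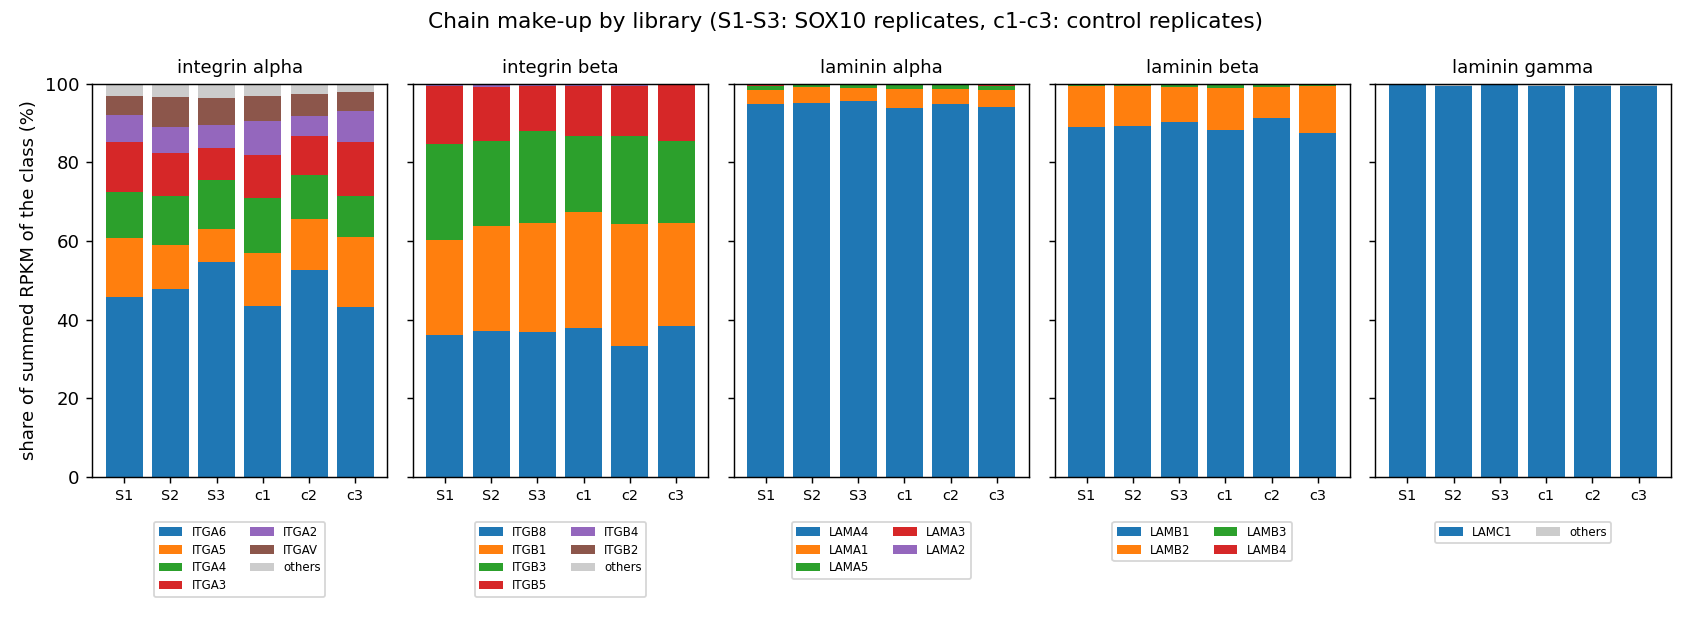
Share of each chain in the summed RPKM of its class, in percent, for SOX10 replicates 1 to 3 (S1 to S3) and control replicates 1 to 3 (c1 to c3). LAMA4, LAMB1 and LAMC1 fill most of their classes in every library, while ITGA6 takes 43.2% to 54.6% of the alpha chains and ITGB8 33.2% to 38.3% of the beta chains.

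The remaining alpha chains lay at or below 3.16 RPKM in every library. ITGA9, which pairs with ITGB1 and binds tenascin C and VCAM1, led them with 2.44 ± 0.667 RPKM in SOX10 libraries and 1.23 ± 0.296 RPKM in control libraries. ITGAE, ITGA1 and ITGA11 passed the filter on low counts with 104, 196 and 73 reads over all libraries. ITGA2B, ITGA8, ITGA10 and the muscle laminin receptor chain ITGA7 did not, with 51, 38, 29 and 21 reads. Among the leukocyte alpha chains, ITGAE had the 104 reads given above, and ITGAM, ITGAX, ITGAD and ITGAL had 20, 10, 4 and 4 reads over all libraries. Exons of ITGAE share 6.41% of their bases with HASPIN on the opposite strand in GENCODE release 29, a gene that is also in the count table.

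Of 24 alpha and beta pairs known for human integrins, 13 had both chains among the tested genes. ITGB1 had 9 of its 12 alpha partners there, and ITGAV had 4 of its 5 beta partners, ITGB1, ITGB3, ITGB5 and ITGB8. No pair with the leukocyte beta chains ITGB2 and ITGB7 was among the 13. RNA of ITGAV was low next to that of the chains that pair with it alone. The summed RPKM of ITGB5, ITGB6 and ITGB8 was 10.9 ± 2.997 times that of ITGAV in SOX10 libraries and 12.4 ± 2.58 times in control libraries (SD, n = 3 each), or 15.6 ± 4.22 and 17.6 ± 3.65 times per longest transcript. These ratios describe RNA, and protein pairs were not measured. The alpha chains that pair with ITGB1, leaving out ITGAV, summed to 2.62 ± 0.231 times ITGB1 in SOX10 libraries and 2.36 ± 0.170 times in control libraries. Per longest transcript these were 2.25 ± 0.234 and 2.05 ± 0.169 times. Among these alpha chains ITGA6 also pairs with ITGB4 and ITGA4 with ITGB7.

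Windows before the transcription starts were read for the SOX core words ACAAAG and ACAATG, on either strand, because the plasmid encodes a SOX factor. In the RefSeq promoter table of build GRCh38.p14, 26 of the 38 genes had 33 windows of 250 bases before a start. The other 12 genes had no window there, among them ITGA9, ITGA3, ITGB3, ITGB4 and LAMA1, so their promoters were not read. Of these windows 2, or 6.06%, held a word, beside 21.2% of 35116 windows of all genes. One lay before a second start of ITGAV and one before a start of LAMB3. Both are shown with the word in capitals, next to the windows of LAMC1 and LAMB1, chains of laminin 411, which hold none. Each is the longest run of its window outside exons of GENCODE release 29, on the strand of the gene. The coordinates are chr2:186599955-186600204 on the plus strand for ITGAV, chr1:209652467-209652675 on the minus strand for LAMB3, chr1:183023170-183023419 on the plus strand for LAMC1 and chr7:108003256-108003411 on the minus strand for LAMB1.
ITGAV: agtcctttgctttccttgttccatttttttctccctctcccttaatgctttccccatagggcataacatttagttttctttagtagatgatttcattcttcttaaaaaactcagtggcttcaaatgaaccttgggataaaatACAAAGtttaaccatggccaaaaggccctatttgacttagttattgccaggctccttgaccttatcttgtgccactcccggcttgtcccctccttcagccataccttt
LAMB3: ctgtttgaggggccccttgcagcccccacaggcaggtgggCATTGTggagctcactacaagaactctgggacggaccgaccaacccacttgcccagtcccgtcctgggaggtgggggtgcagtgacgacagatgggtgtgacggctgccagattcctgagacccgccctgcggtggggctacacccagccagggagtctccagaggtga
LAMC1: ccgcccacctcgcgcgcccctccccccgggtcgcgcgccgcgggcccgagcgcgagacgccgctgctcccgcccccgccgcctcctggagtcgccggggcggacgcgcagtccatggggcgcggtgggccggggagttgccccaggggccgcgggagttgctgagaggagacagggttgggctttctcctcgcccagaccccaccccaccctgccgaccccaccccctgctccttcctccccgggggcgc
LAMB1: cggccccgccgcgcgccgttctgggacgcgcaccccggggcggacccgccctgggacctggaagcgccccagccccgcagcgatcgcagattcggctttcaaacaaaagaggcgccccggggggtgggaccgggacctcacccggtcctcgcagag
The word ACAAAG starts 108 bases before that start of ITGAV, and CATTGT, the reverse complement of ACAATG, 210 bases before that start of LAMB3. The runs of LAMC1 and LAMB1 consist of G and C to 79.6% and 75.0%, that of ITGAV to 40.8%. A match is a description of letters, and binding was not measured.

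The comparison of SOX10 with control cells asked whether the SOX10 plasmid moved any of these chains within 24 h. By edgeR, 0 of the 23 tested genes had an adjusted p under 0.05, with adjustment over all 10678 tested genes. Among all tested genes 12 passed, or 0.112%, with 0.00937% higher and 0.103% lower in SOX10 cells. At an unadjusted p under 0.05 there was 1 of the 23, ITGA9, where 6.23% of all tested genes had such a p and 2.71% had one with a higher SOX10 level. DESeq2 and limma-voom also called 0 of the 23 after adjustment, where they called 0.112% and 0.0749% of all genes they tested. Log2 fold changes of the 23 reached 1.07 and had a median of 0.05, beside a median of 0.01 over all tested genes. Signs of the 23 were 15 positive and 8 negative, beside 5481 positive and 5197 negative over all tested genes. Of the integrin and laminin genes 0 passed under other settings too. There, 0.131% of all tested genes passed with library totals, 0.0749% with upper quartiles, 0.234% with no filter on low counts, 0.128% with at least 1 CPM in 3 libraries and 0.0656% with the replicate number as a block. With 1 library left out, 0.0537% to 0.167% passed, namely 0.0744% without SOX10 replicate 2 or 3, and 0.0537% and 0.0802% when control replicate 1 or 3 was dropped. It was 0.0691% when SOX10 replicate 1 and control replicate 3 were dropped together. In ITGA9 alone of the 23 the groups did not overlap, against 11.8% of all tested genes, 5.72% with the SOX10 libraries higher and 6.03% with them lower.

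**Figure D3:**
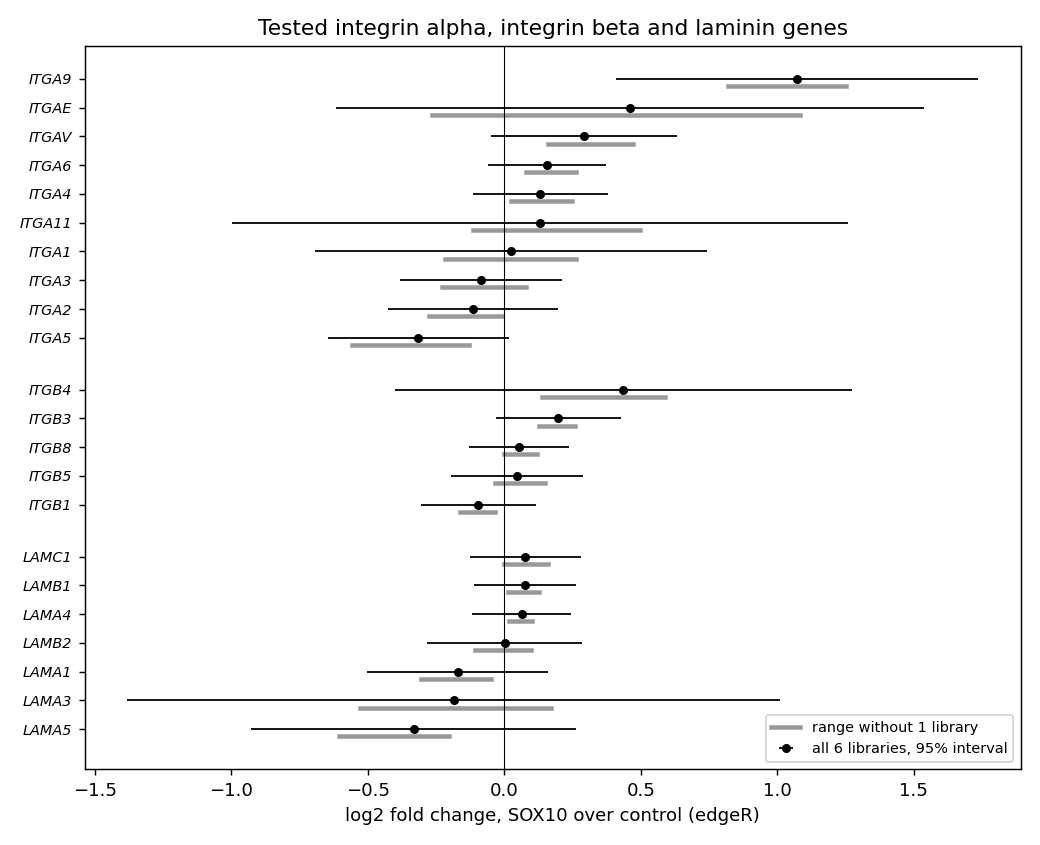
Log2 fold change of SOX10 over control for the tested genes reported here, with 95% confidence intervals from all 6 libraries (black) and the range of the estimates when each library in turn was left out (grey). The intervals of LAMA4, LAMB1, LAMC1 and ITGB8 are the narrowest and include 0, and ITGA9 has the one interval that lies wholly above 0 before adjustment for many genes.

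For the abundant chains the intervals were narrow. LAMA4 had 1390, 1505 and 1429 CPM in SOX10 replicates 1, 2 and 3, against 1447, 1285 and 1400 CPM in control replicates 1, 2 and 3. The groups overlapped, and the fold was 1.05 with a 95% confidence interval from 0.923 to 1.19 and an adjusted p of 0.943 by edgeR. LAMB1 had 1071, 1091 and 1126 CPM in SOX10 libraries, against 1065, 1110 and 948 CPM in control libraries. Control replicates 1 and 3 were below all SOX10 libraries and control replicate 2 was among them, and the fold was 1.05 with an interval from 0.926 to 1.20. LAMC1 had 1279, 1467 and 1602 CPM in SOX10 libraries, against 1320, 1519 and 1285 CPM in control libraries. Its groups also overlapped, with a fold of 1.06 and an interval from 0.917 to 1.21. ITGB8 had 1513, 1515 and 1602 CPM in SOX10 libraries, against 1477, 1363 and 1615 CPM in control libraries. Its fold was 1.04 with an interval from 0.914 to 1.18, and control replicate 3 was the highest of the 6 libraries.

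Of the laminin receptor chains, ITGA6 had 608, 648 and 730 CPM in SOX10 libraries, against 552, 682 and 552 CPM in control libraries. Control replicate 2 lay among the SOX10 values, and the fold was 1.12 with an interval from 0.959 to 1.30 and an adjusted p of 0.915 by edgeR. ITGA3 had 251, 223 and 164 CPM in SOX10 libraries, against 212, 190 and 264 CPM in control libraries. SOX10 replicate 3 was the lowest and control replicate 3 the highest, and the fold was 0.943 with an interval from 0.768 to 1.16. ITGB1 had 405, 431 and 476 CPM in SOX10 libraries, against 460, 506 and 438 CPM in control libraries. The groups overlapped with a fold of 0.937 and an interval from 0.810 to 1.08. ITGB4 had 33, 34 and 33 reads in SOX10 libraries, against 8, 8 and 11 reads in control libraries, with a fold of 1.35 and an interval from 0.758 to 2.42. The groups overlapped when scaled to depth. ITGA4, the third chain of its class by level, had 190, 205 and 202 CPM in SOX10 libraries, against 212, 179 and 159 CPM in control libraries. Its groups overlapped, with a fold of 1.10 and an interval from 0.923 to 1.30.

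The next 4 integrin genes by p after ITGA9 were ITGA5, ITGB3, ITGAV and ITGA6, and ITGA6 is given above. ITGA5 had 231, 174 and 131 CPM in SOX10 libraries, against 200, 194 and 263 CPM in control libraries. Its log2 fold change was -0.31 ± 0.16 (SE) with an unadjusted p of 0.0612 and an adjusted p of 0.835 by edgeR. It was -0.56 without SOX10 replicate 1, -0.13 without SOX10 replicate 3 and -0.14 when control replicate 3 was left out. With reads outside genes as a covariate it was -0.41, with an adjusted p of 0.102 by edgeR, and over all alternatives its adjusted p ran from 0.102 to 0.9999, the highest with DESeq2. ITGAV had 80.6, 129 and 118 CPM in SOX10 libraries, against 102, 90.0 and 78.5 CPM in control libraries. SOX10 replicate 1 lay with the controls, and the log2 fold change was 0.29 ± 0.16 (SE) with an adjusted p of 0.871, or 0.47 without that library and 0.16 without SOX10 replicate 2. ITGB3 had 298, 258 and 293 CPM in SOX10 libraries, against 219, 265 and 255 CPM in control libraries. Control replicate 2 exceeded SOX10 replicate 2, and the log2 fold change was 0.20 ± 0.11 (SE) with an adjusted p of 0.871, or 0.13 without control replicate 1. Exons of ITGB3 share 51.6% of their bases with the overlapping gene AC068234.1 on the same strand in GENCODE release 29, which has no row in the count table.

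**Figure D4:**
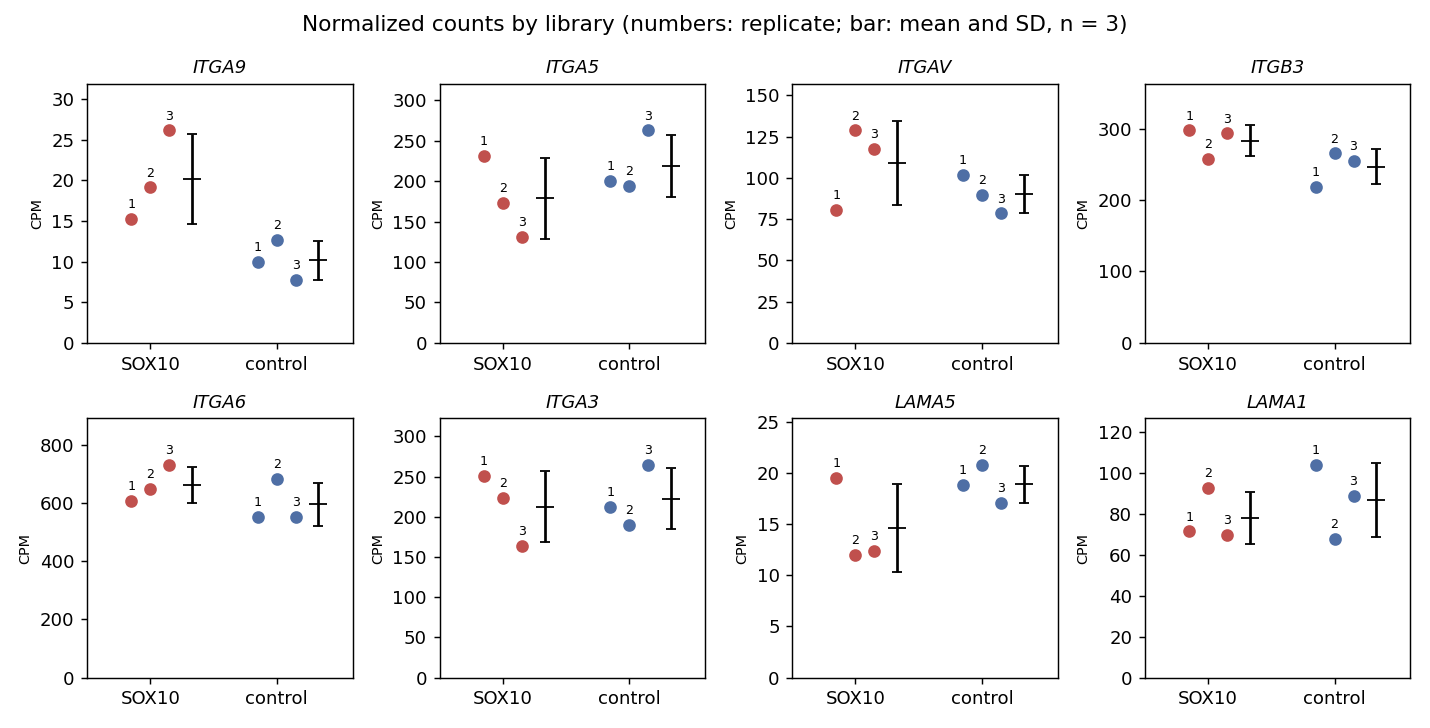
Normalized counts (CPM) in each library for 8 genes, with the replicate number above each point and the mean with SD (n = 3) beside each group. The SOX10 points of ITGA9 lie above all control points, and in the other 7 genes the groups overlap.

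ITGA9 was the gene with the smallest p of the 23 tested. It had 57, 48 and 108 reads in SOX10 replicates 1, 2 and 3, against 9, 11 and 16 reads in control replicates 1, 2 and 3. Scaled to depth these were 15.3, 19.1 and 26.2 CPM in SOX10 libraries, against 9.95, 12.7 and 7.80 CPM in control libraries. Every SOX10 library was thus above every control library. The log2 fold change was 1.07 ± 0.32 (SE), a fold of 2.10 with a 95% interval from 1.33 to 3.33, and the unadjusted p by edgeR was 0.00279 but the adjusted p 0.354. Leaving out single libraries moved the log2 fold change between 0.82 and 1.25. With every library thinned once at random to the smallest total it was 0.47, with an adjusted p of 0.978, and 0.0% of all genes tested in that fit passed. Over all alternatives its adjusted p ran from 0.0972, with reads outside genes as a covariate, to 0.978. Exons of ITGA9 share 6.46% of their bases with ITGA9-AS1 on the opposite strand in GENCODE release 29. That antisense gene has no row in the count table. Reads were counted with a strand setting not given in the sources used here. Whether reads of ITGA9 and of its antisense gene were kept apart within the shared stretch is thus not known.

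Of the laminin genes of low level, LAMA5 had 19.5, 11.97 and 12.4 CPM in SOX10 libraries, against 18.8, 20.8 and 17.1 CPM in control libraries. SOX10 replicate 1 lay among the controls, and the log2 fold change was -0.33 ± 0.29 (SE), for which edgeR's adjusted p was 0.929, or -0.61 without that library. LAMA1 had 71.5, 92.9 and 69.8 CPM in SOX10 libraries, against 104, 68.1 and 88.7 CPM in control libraries, and a log2 fold change of -0.17 ± 0.16 (SE). The groups overlapped in both genes. LAMB4, which had too few reads for the test and was named after its values were seen, had 2.14, 1.99 and 3.15 CPM in SOX10 libraries, against 4.42, 4.61 and 3.41 CPM in control libraries, on 4 to 13 reads a library.

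The libraries also differed in reads outside genes. SOX10 replicate 1 and control replicate 3 had 93.5 and 97.0 reads outside genes per 100 assigned reads, against 121 to 135 in the other 4 libraries. ITGA3, ITGA5 and ITGB5 were higher in both of these libraries than in the other 4, and ITGAV and LAMC1 were lower in both. That is 3 and 2 of 23 tested genes, or 13.04% and 8.70%, beside 8.74% and 8.63% of all tested genes, shares near those of the background. The part of this property in the values was not tested beyond a fit with the ratio as a covariate, in which 0 of the 23 genes passed, where 0.487% of all tested genes did.

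Genes that work with the integrins and laminins were followed in 3 lists, of which 71 of 92 genes were tested and 0 passed after adjustment over all genes by edgeR, DESeq2 or limma-voom. Of these 71, 4 had an unadjusted p under 0.05 by edgeR, or 5.63%, beside the 6.23% of all tested genes. Signs over the 71 were 37 positive and 34 negative, beside 5481 and 5197 over all tested genes. Of 30 tested activators and adaptors, such as talin, kindlins and tetraspanins, 13 had a positive and 17 a negative log2 fold change, with a median of -0.02. The tetraspanin CD63 stood at a log2 difference of 0.19 ± 0.12 (SE), the small GTPase RAP1A, an activator of integrins, at 0.36 ± 0.27 (SE). Of 21 tested basement membrane partners and other laminin receptors 13 were positive and 8 negative, with a median of 0.13. The syndecan SDC1, a heparan sulfate proteoglycan that binds matrix, had 32.7, 35.9 and 32.0 CPM in SOX10 libraries, against 17.7, 21.9 and 23.9 CPM in control libraries. Its groups did not overlap, and the log2 fold change was 0.62 ± 0.22 (SE) with an adjusted p of 0.526. The collagen chain COL4A1, the other main polymer of basement membranes, had a log2 fold change of 0.26 ± 0.13 (SE), for which edgeR's adjusted p was 0.830.

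Of 20 tested other ligands of integrins 11 were positive and 9 negative, with a median of 0.04. ICAM1, the ligand of the leukocyte integrins with ITGB2, had 99.3, 72.2 and 53.0 CPM in SOX10 libraries, against 127, 79.6 and 254 CPM in control libraries. SOX10 replicate 1 lay above control replicate 2, and control replicate 3 was far above all others. The log2 fold change was -1.12 ± 0.25 (SE), for which edgeR's adjusted p was 0.114. It was -0.47 with an adjusted p of 0.833 without control replicate 3, and it passed the test without SOX10 replicate 1, at 0.0191, and without control replicate 2, at 0.00484, where 0.167% and 0.161% of all tested genes passed. ADAM23, a surface protein that binds ITGAV with ITGB3, differed by 0.34 ± 0.15 (SE) on the log2 scale, and edgeR's adjusted p was 0.763.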

How the data were processed

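Total RNA of 6 flasks was sequenced from NuGEN Encore Complete libraries made from 125 ng of RNA, per the labels' protocols. TopHat 1.4.0, HTSeq, DESeq and hg19 are named in the submitters' processing notes, with annotation and strand setting not given in the sources used here. Deposited values are the authors' raw whole-number counts per gene, and 5 class rows of HTSeq, which name no gene, were left out. Of all counted records 39.4% to 46.9% lay outside genes, 17.7% to 19.1% aligned more than once and 0.435% to 0.551% were ambiguous.

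All 6 libraries entered a quasi-likelihood test in edgeR 4.0.16 (R 4.3.3) after TMM scaling and filterByExpr (minimum count 10, minimum total 15), without covariates, and Benjamini-Hochberg adjustment over 10678 genes, with a threshold of 0.05. Standard errors come from the F statistic, and the median over tested genes was 0.23. RPKM used exon lengths of GENCODE release 29, whose build differs from hg19, so only promoter windows carry coordinates. On simulated counts of 10433 genes the test recovered 62 of 100 genes changed 2-fold and 96 of 100 changed 4-fold, with 8 false calls. Alternatives used DESeq2 1.42.0, limma 3.58.1 (voom), other scalings and filters, thinning, a covariate and fewer libraries.

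Within groups, chi-square per degree of freedom between libraries ran from 2.11 to 7.03, more than counting gives. The series' design text calls the replicates biological. Deviations of same-numbered libraries correlated at -0.030, -0.033 and -0.14, so the numbers were not taken as pairs. Values were given in every library for the 3 highest chains per length among integrin alpha, integrin beta and laminin genes, the 5 integrin and 5 laminin genes with the smallest p and the tested laminin receptor chains, and for other genes by counts, except where said. Of each partner list the 2 genes with the smallest p were named. Members, lists and alternatives were chosen with earlier results of these data known. Of the 38 genes 1 enters the counts but is not reported here.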

Additional observations from a re-analysis of the deposited data

How the results depend on the processing

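In 17 alternatives 0 integrin or laminin genes passed, and 13 of 23 kept their sign in all. Over all genes 12 passed, against 48 with no filter on low counts, 52 with reads outside genes as a covariate, 7 without SOX10 replicate 1 and control replicate 3 together, and 6 to 18 with single libraries left out, the 6 without control replicate 1. After thinning to equal depth edgeR called 0 of 8616 genes. Integrin or laminin genes with an unadjusted p under 0.05 numbered 1 in the main test, where 6.23% of all tested genes had such a p. They numbered 4 with the covariate, 4 of 38 with no filter and 1 to 3 without 1 or 2 libraries. After thinning, with limma-voom and with at least 1 CPM in 3 libraries there were 2. The share of all tested genes was not taken for these alternatives, so their counts cannot be read as a result about these genes. Of the partner genes 1, ICAM1, passed with no filter, with at least 1 CPM in 3 libraries and with the covariate, and 0 to 1 with single libraries left out. The log2 fold change turned sign for ITGA1 with limma-voom (-0.054), for ITGA2 (0.011), ITGB5 (-0.036) and ITGB8 (-0.0056) after thinning, for ITGAE without both libraries (-0.20) and for LAMB2 with DESeq2 size factors (-0.0012), limma-voom (-0.010) and the covariate (-0.019). With single libraries left out it ran from -0.21 to 0.26 for ITGA1, -0.12 to 0.50 for ITGA11, -0.23 to 0.080 for ITGA3, -0.27 to 1.08 for ITGAE, -0.035 to 0.15 for ITGB5, -0.0023 to 0.12 for ITGB8, -0.53 to 0.17 for LAMA3, -0.11 to 0.10 for LAMB2 and -0.0016 to 0.16 for LAMC1. The cause was not tested. With the replicate block 7 of all genes passed, with 0 integrin or laminin and 0 partner genes.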
